A study of Mus musculus with 14 samples.

Results

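Btg1, Btg2, Btg3, Tob1 and Tob2 are the 5 members of the BTG and TOB family of antiproliferative genes described here, chosen by their symbols among the 20207 genes listed for each RNA library. Reads of all 5 were present in the data, and 4 of them (Btg1, Btg2, Tob1 and Tob2) passed the filter on low values and were among the 11177 genes tested. The study compared mouse embryo fibroblasts of strain 129/Sv, primary per the series' design text, that were wild-type or p53-/-, each either untreated or given doxorubicin, a drug that damages DNA, at 0.2 µg/ml for 6 h. There were 3 libraries of untreated wild-type cells, 3 of doxorubicin-treated wild-type cells, 2 of untreated p53-/- cells and 2 of doxorubicin-treated p53-/- cells, 10 in all, made from poly(A)-selected RNA by a protocol that sequences the 3' ends of transcripts. The p53-/- libraries are called p53-null below. The labels do not say which p53 allele was used or whether the numbered replicates came from separate embryos or cultures, so the p-values measure the spread between these libraries, which may be technical.

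BTG and TOB proteins share an N-terminal domain that binds the catalytic subunits of CCR4-NOT, the complex that shortens the poly(A) tails of messenger RNAs. TOB proteins also carry motifs that bind the cytoplasmic poly(A)-binding protein and so bring the deadenylase to messages. Forced expression of family members slows entry into S phase, and Btg2 is a textbook target of p53, the transcription factor that DNA damage activates in fibroblasts.

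Bases upstream of the annotated start sites are printed for the 4 tested members, to show what they share before their RNA levels are compared. The 250 bases before each start were taken from RefSeq on GRCm38.p6, and are written 5′ to 3′ on the gene's own strand. Capitals mark the cAMP response element TGACGTCA, its half-site TGACG, read as CGTCA where it lies on the other strand, and the TATA box TATAAA.
Btg2: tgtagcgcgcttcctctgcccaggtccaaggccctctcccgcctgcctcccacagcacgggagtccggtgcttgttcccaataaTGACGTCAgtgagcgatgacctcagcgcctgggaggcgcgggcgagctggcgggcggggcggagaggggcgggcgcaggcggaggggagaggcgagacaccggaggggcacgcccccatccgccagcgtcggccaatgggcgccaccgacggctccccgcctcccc
Btg1: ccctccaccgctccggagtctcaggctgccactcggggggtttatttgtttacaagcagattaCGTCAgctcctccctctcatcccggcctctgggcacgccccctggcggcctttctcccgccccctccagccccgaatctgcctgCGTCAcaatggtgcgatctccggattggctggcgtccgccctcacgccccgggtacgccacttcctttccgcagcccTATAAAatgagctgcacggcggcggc
Tob1: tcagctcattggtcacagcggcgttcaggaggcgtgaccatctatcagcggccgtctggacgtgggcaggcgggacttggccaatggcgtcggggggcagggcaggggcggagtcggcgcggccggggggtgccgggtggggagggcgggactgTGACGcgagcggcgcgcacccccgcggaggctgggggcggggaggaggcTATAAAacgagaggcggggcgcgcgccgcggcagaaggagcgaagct
Tob2: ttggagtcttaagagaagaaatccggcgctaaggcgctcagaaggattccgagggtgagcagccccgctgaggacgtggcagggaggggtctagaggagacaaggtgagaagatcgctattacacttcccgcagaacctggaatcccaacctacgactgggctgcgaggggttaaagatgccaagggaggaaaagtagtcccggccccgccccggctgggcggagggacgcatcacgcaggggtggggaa
The Btg2 window was chr1:134079156-134079405 on the minus strand, the Btg1 window chr10:96616751-96617000 on the plus strand, the Tob1 window chr11:94211204-94211453 on the plus strand, and the Tob2 window chr15:81858327-81858576 on the minus strand. Btg2 held the whole TGACGTCA, with its first base at -166 from the start site, a sequence found on either strand in 1.55% of 32851 such windows. The half-site, which lies within the whole element and was present in 17.8% of windows, stood at -187 and -103 in Btg1 and at -96 in Tob1. A TATAAA was present at -26 in Btg1 and at -47 in Tob1, against 12.4% of windows. CCAAT, present on either strand in 33.8% of windows, occurred in Btg2 (-173 and -34), Btg1 (-80) and Tob1 (-243 and -170). Tob2 held none of these motifs. The p53 half-site was searched as RRRCWWGYYY (R is A or G, W is A or T, Y is C or T). It was present in 7.13% of windows and had no match in any window of the 5 members. Sites with a mismatch, or outside the windows, were not searched. Both RefSeq windows of Btg3 held only a CCAAT. These are matches of letters, and no match says only that the letters are not in the window.

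Depth, as the sum of recovered reads, was 9768233 to 11770448 in the wild-type and 18099507 to 25970157 in the p53-null libraries. Depth and genotype thus cannot be told apart in comparisons between genotypes. Within p53-null cells, untreated libraries had 18099507 and 18698205 reads, and treated ones 25252375 and 25970157. Depth and treatment thus cannot be told apart in the p53-null comparison, and the difference of responses rests on it too. Trp53 itself was read in every library, at a mean of 23.2 reads per 1000000 reads of scaled library size (counts per 1000000, CPM) in untreated wild-type and 71.9 in untreated p53-null cells. Where in the gene these 3' reads lie is not known, so they do not check the genotype labels. The p53 targets Cdkn1a, Mdm2 and Ccng1 rose in wild-type cells with doxorubicin (log2 fold changes of 2.73, 2.84 and 3.17). None of the 3 passed the test in p53-null cells, where no tested gene did. Their log2 differences there were 0.68 (SE 0.22), 0.17 (SE 0.31) and -0.13 (SE 0.34). Cdkn1a was higher in every treated than in every untreated p53-null library, in a comparison where the groups of 53.8% of all tested genes did not overlap. All 10 fibroblast markers were read in every group, with summed levels of 3060 to 7190 CPM across libraries. Markers of macrophages and blood (14 genes) summed to 102, 535 and 582 CPM in untreated wild-type replicates 1, 2 and 3 and to 47.6, 225 and 258 CPM in the treated ones, against 87.1 to 129 CPM in p53-null libraries. These markers were uneven: over all libraries C1qb had 8485 reads, Tyrobp 5543 and Csf1r 4058, but Ptprc 22, Emr1 24 and Fcer1g 37.

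Doxorubicin raised Btg2 and Tob1 in wild-type cells, by log2 fold changes of 2.33 and 1.80, while Btg1 was higher in every treated than in every untreated wild-type library without passing the test, and Tob2 did not change detectably. None of the 4 changed detectably in p53-null cells. Of the 4 tested members, 2 passed the test in wild-type cells, both upwards, where 12.6% of all tested genes passed and 8.03% rose. In the p53-null comparison 0 of 4 passed, as did 0% of all tested genes with limma, although 1254 genes (11.2%) had an unadjusted p under 0.05.

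**Figure D1:**
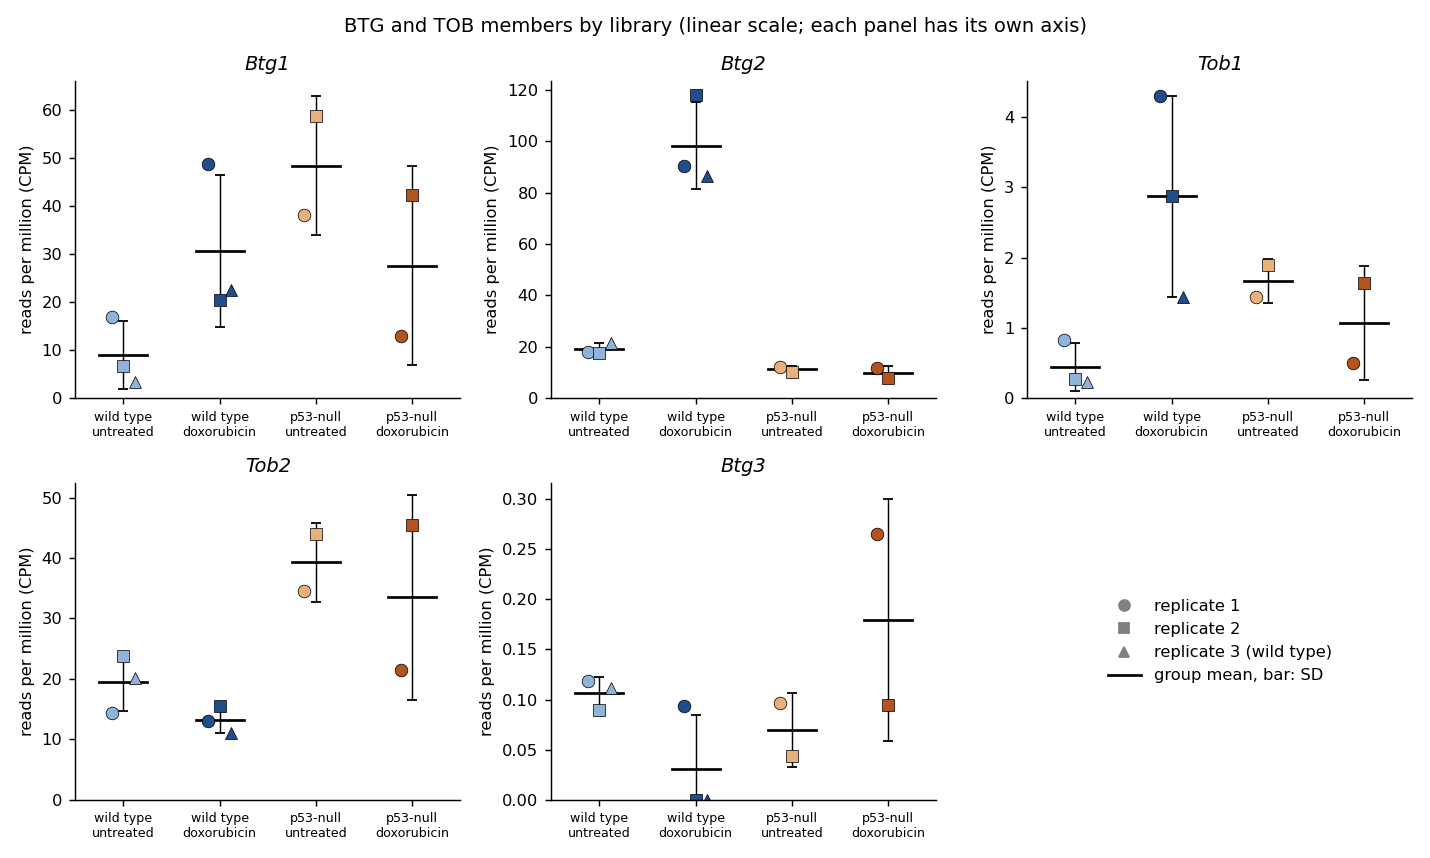
Level of each member in every library, in CPM, by group, with 1 point per library and a bar at the group mean. Btg2 stood at 86.6 to 118 CPM in the 3 treated wild-type libraries and at 21.6 CPM or less in the 7 others.

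Btg2, a member whose protein binds the CCR4-NOT deadenylase, was read at 18, 17.7 and 21.6 CPM in untreated wild-type replicates 1, 2 and 3, and at 90.6, 118 and 86.6 CPM after doxorubicin. The p53-null libraries gave 12 and 10.3 CPM untreated and 11.6 and 7.64 CPM treated. All 3 treated wild-type libraries lay above all others, the untreated wild-type libraries lay above all 4 p53-null ones, and the p53-null groups overlapped, as did those of the other 3 tested members, while the groups of 53.8% of all tested genes did not. In wild-type cells the rise was 2.33 on the log2 scale (standard error (SE) 0.23, 95% interval 1.81 to 2.85, adjusted p = 0.000202, limma), a 5.02-fold difference on the scale of CPM plus 0.5. In p53-null cells the difference was -0.23 (SE 0.28, adjusted p = 0.793, limma). In bulk RNA, a change in RNA per cell and a change in the share of cells that hold it cannot be told apart.

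The response of Btg2 differed between genotypes. The wild-type response exceeded the p53-null one by 2.56 on the log2 scale (SE 0.37, adjusted p = 0.00787, limma with an interaction contrast). With wild-type libraries paired by replicate number, a choice made after seeing the data, Btg1 and Tob1 also passed this test, among 865 genes. In the fit without pairing, Btg2 was the only 1 of the 4 tested members that passed. There 2.34% of all genes passed and 1.89% were higher in wild type. Without untreated p53-null replicate 1 the adjusted p of Btg2 was 0.0679.

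Tob1, which links CCR4-NOT to the poly(A)-binding protein, was rare in every library. Untreated wild-type replicates 1, 2 and 3 gave 7, 3 and 2 reads (0.833, 0.269 and 0.225 CPM), and the treated ones gave 46, 31 and 14 reads (4.3, 2.88 and 1.44 CPM). The p53-null libraries gave 30 and 43 reads untreated (1.44 and 1.89 CPM) and 13 and 52 reads treated (0.493 and 1.64 CPM). Every treated wild-type library exceeded every untreated one, and the p53-null groups overlapped. Summed over libraries, 91 reads against 12 made a ratio per depth of 6.91 in wild-type cells, with an exact 95% interval of 3.77 to 13.9 that covers counting error only. The fitted log2 fold was 1.80 (SE 0.42, 95% interval 0.87 to 2.73, adjusted p = 0.0199, limma). This call was lost when wild-type treated replicate 1 or 2 or untreated replicate 2 or 3 was left out (adjusted p between 0.0543 and 0.0794), with no filter on low values (0.0501) and with only the wild-type groups in the fit (0.0507).

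In p53-null cells the Tob1 difference was -0.56 on the log2 scale (SE 0.51, adjusted p = 0.702, limma). The gap between the responses, 2.37 (SE 0.66), did not pass the test (adjusted p = 0.0877, limma). With a replicate block within wild type, where equal numbers paired the libraries, its adjusted p was 0.0264.

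Btg1, the closest relative of Btg2 in the family, varied more between replicates than the other tested members. It stood at 17, 6.73 and 3.37 CPM in untreated wild-type replicates 1, 2 and 3, and at 48.9, 20.4 and 22.5 CPM in the treated ones. The p53-null libraries gave 38.2 and 58.8 CPM untreated and 12.9 and 42.3 CPM treated. Treated wild-type libraries all exceeded untreated ones, as in 17% of all tested genes, while the p53-null groups overlapped. Untreated replicate 3 was lowest for Btg1 and had the highest sum of macrophage and blood markers, and replicate 1 had the opposite order; the part of these markers in the Btg1 levels was not tested. The residual standard deviation of Btg1 over the 4 groups was 0.90 on the log2 scale, larger than that of 94.2% of tested genes, against 0.24 for Btg2, 0.58 for Tob1 and 0.41 for Tob2.

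The wild-type difference of Btg1 was 1.87 on the log2 scale (SE 0.60, 95% interval 0.54 to 3.19) and did not pass the test (adjusted p = 0.0703, limma). With the replicate block within wild type its SE was 0.41 and its adjusted p was 0.012. The adjusted p was 0.0431 with the block over all libraries and 0.024 without untreated wild-type replicate 1. The p53-null difference of Btg1 was -1.0 (SE 0.73, adjusted p = 0.632, limma). The gap between the responses was 2.87 (SE 0.94, adjusted p = 0.133, limma), or an adjusted p of 0.0323 with the block within wild type.

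Tob2, the second poly(A)-binding-protein partner in the family, was the only tested member with a negative wild-type difference. Untreated wild-type replicates 1, 2 and 3 gave 14.4, 23.8 and 20.2 CPM, and treated ones 13, 15.5 and 11.1 CPM. The p53-null libraries gave 34.6 and 43.9 CPM untreated and 21.5 and 45.5 CPM treated. Treated and untreated libraries overlapped within each genotype. The log2 difference was -0.53 in wild-type cells (SE 0.31, adjusted p = 0.312, limma) and -0.31 in p53-null cells (SE 0.38, adjusted p = 0.789, limma). The responses did not differ detectably (-0.21, SE 0.49, adjusted p = 0.825, limma).

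**Figure D2:**
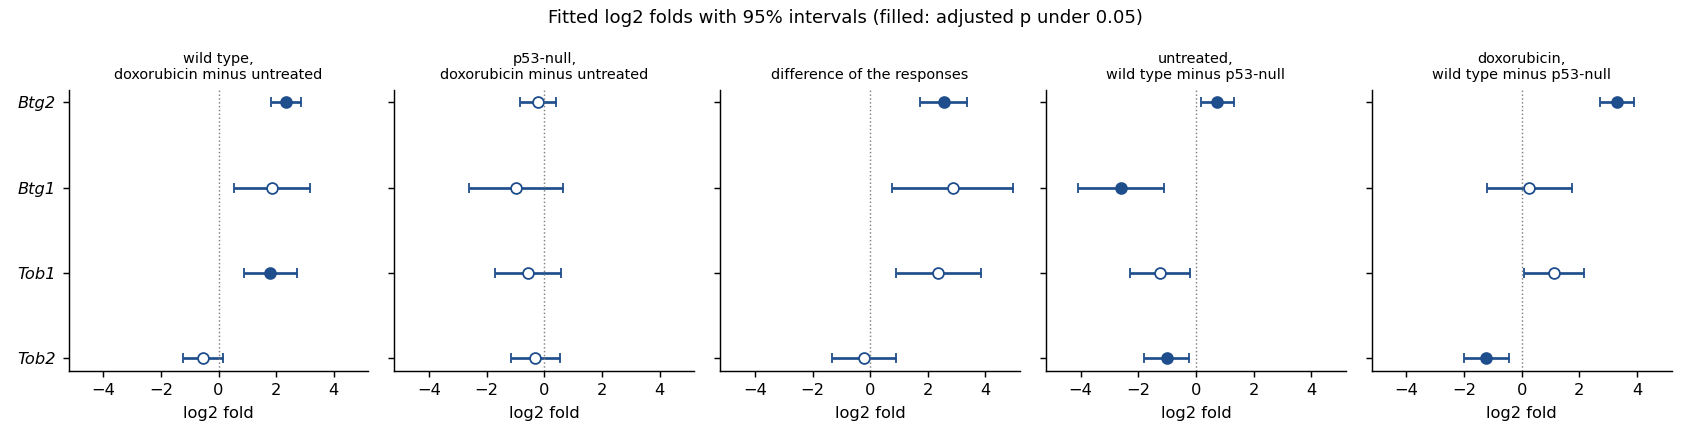
Log2 fold change of the 4 tested members in the comparisons of treatment and genotype, with lines for the 95% intervals from limma. In this fit without pairing, Btg2 is the member whose response was higher in wild type beyond the test (2.56). The intervals of Btg1 and Tob1 are wide beside it.

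Taken by equal replicate number, Btg2 was 2.30, 2.70 and 1.98 higher on the log2 scale in the treated wild-type library of numbers 1, 2 and 3. The differences for Btg1 were 1.50, 1.53 and 2.57, and those for Tob1 were 1.85, 2.14 and 1.42. For Tob2 they were -0.14, -0.60 and -0.84. Btg2, Btg1 and Tob1 were thus higher, and Tob2 lower, in the treated library of each wild-type number, Tob2 by only -0.14 in number 1. The share of all tested genes that keep 1 direction over the 3 numbers is not given, so this describes the libraries only. In p53-null numbers 1 and 2, the differences were -0.04 and -0.41 for Btg2, -1.53 and -0.47 for Btg1, -0.97 and -0.16 for Tob1, and -0.68 and 0.05 for Tob2.

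**Figure D3:**
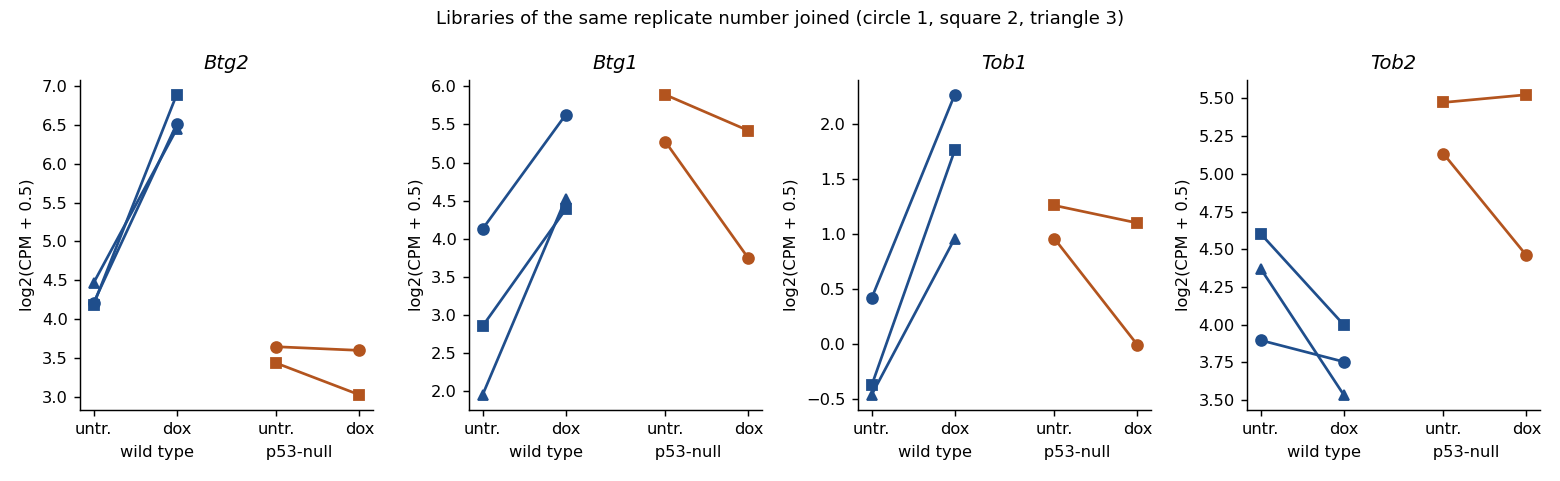
Untreated and treated levels of each tested member joined by replicate number within each genotype, on a log scale. Lines of Btg1, Btg2 and Tob1 rise in all 3 wild-type numbers. In p53-null cells their lines fall in numbers 1 and 2, for Btg2 in number 1 by a log2 difference of only -0.04. None of these members passed the test in p53-null cells. The share of all tested genes that keep 1 direction is not given.

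Without treatment, Btg1 and Tob2 were lower and Btg2 was slightly higher in wild-type than in p53-null cells. Of the 4 tested members 3 passed, where 33.2% of all tested genes passed, 12.7% upwards and 20.4% downwards. The 4 members each separated the groups without overlap, as did 64.9% of all genes. Btg1 averaged 9.04 ± 7.11 CPM (SD, n = 3) in wild-type and 48.5 ± 14.6 CPM (SD, n = 2) in p53-null cells, a log2 difference of -2.60 (SE 0.67, adjusted p = 0.0171, limma). The Btg1 call was lost without untreated wild-type replicate 3 (adjusted p = 0.0543) and without untreated p53-null replicate 1 (0.0767) or 2 (0.128). Tob2 averaged 19.5 ± 4.74 CPM (SD, n = 3) against 39.2 ± 6.53 CPM (SD, n = 2), a difference of -1.01 (SE 0.35, adjusted p = 0.0483, limma) that passed in 8 of 18 alternatives. The Tob2 call was lost without any 1 of the 5 untreated libraries (adjusted p between 0.0612 and 0.232) or without treated wild-type replicate 1 (0.0609).

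Btg2 averaged 19.1 ± 2.16 CPM (SD, n = 3) in untreated wild-type and 11.2 ± 1.19 CPM (SD, n = 2) in untreated p53-null cells. The log2 difference of 0.74 (SE 0.26) lay at the threshold (adjusted p = 0.04995, limma) and passed in 6 of 18 alternatives. With scaling by library size alone it was 0.36 (adjusted p = 0.264). The call was also lost without any 1 of the 5 untreated libraries (adjusted p between 0.0538 and 0.232) or treated wild-type replicate 1 (0.0648). Tob1 differed by -1.25 (SE 0.47, adjusted p = 0.0628, limma), without passing the test, and passed in 4 of 18 alternatives. These were the fits without untreated wild-type replicate 1 (0.0401) or treated wild-type replicate 3 (0.0375), with library size alone (0.035) and with only the compared groups (0.0219).

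With doxorubicin, Btg2 was higher and Tob2 lower in wild-type than in p53-null cells, and Btg1 and Tob1 did not pass the test. These 2 of 4 stand beside 12.1% of all tested genes, 6.82% upwards and 5.25% downwards. Btg2 averaged 98.4 ± 17.1 CPM (SD, n = 3) against 9.64 ± 2.82 CPM (SD, n = 2), a log2 difference of 3.30 (SE 0.26, adjusted p = 2.8e-05, limma) that passed in all 18 alternatives. Tob2 averaged 13.2 ± 2.22 CPM (SD, n = 3) against 33.5 ± 17 CPM (SD, n = 2), a difference of -1.23 (SE 0.35, adjusted p = 0.0471, limma) that passed in 8 of 18 alternatives. It was lost without any 1 library except untreated wild-type replicate 1, treated wild-type replicate 2 and treated p53-null replicate 1 (adjusted p between 0.061 and 0.344). Tob1 differed by 1.12 (SE 0.47, adjusted p = 0.148, limma). Btg1, at 30.6 ± 15.9 CPM (SD, n = 3) against 27.6 ± 20.8 CPM (SD, n = 2), differed by 0.26 (SE 0.67, adjusted p = 0.832, limma). Both genotype comparisons share their libraries with the treatment comparisons.

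Ordered by group mean, Btg2 ran from treated p53-null through untreated p53-null and untreated wild type to treated wild type. Only the first neighbours in that order overlapped. For Btg1, Tob1 and Tob2 all neighbouring groups overlapped, although groups farther apart in the order did not always.

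Btg3, a relative with the same deadenylase-binding domain, was near the limit of detection. It had 1 read in each untreated wild-type library, 1, 0 and 0 in treated wild-type replicates 1, 2 and 3, 2 and 1 in untreated p53-null libraries, and 7 and 3 in treated p53-null ones. A library with 0 reads allows up to 0.279 (treated wild-type replicate 2) or 0.309 CPM (replicate 3), counting error alone. The treated-to-untreated ratio per depth was 2.5 in p53-null cells (exact 95% interval 0.643 to 14.1, 10 reads against 3) and 0.304 in wild-type cells (0.00579 to 3.79, 1 read against 3). Both intervals include no change, so no difference in Btg3 was detectable at this depth. Btg4, the oocyte-enriched family gene outside the 5, had 0 reads in 8 libraries and 1 read in each of the other two.

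The genes of proteins through which the family acts were followed in the same tests, in which 12.6% of all tested genes passed in wild-type cells, 0% in p53-null cells and 2.34% in the difference of responses. Among 11 tested subunits of CCR4-NOT, none passed in either genotype or in the difference of responses, and the medians of their log2 fold changes were -0.28 in wild-type and 0.02 in p53-null cells, beside 0.05 and -0.08 for all tested genes. The nearest to passing was D1Bwg0212e, listed under its older symbol for Cnot11, at 1.03 in wild-type cells (adjusted p = 0.0505, limma). Of 9 partners at the poly(A) tail (PAN2-PAN3, PARN, poly(A)-binding proteins and their regulators), none passed with treatment either. Their medians were 0.19 and -0.33.

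Of 8 tested RNA-binding adaptors that recruit deadenylases to chosen messages, 1 passed in the difference of responses and none in either genotype alone. Their median log2 fold change was 0.28 in wild-type and -1.05 in p53-null cells, where 0 of 8 were positive, and 1.27 in the difference, beside 0.05, -0.08 and 0.13 for all tested genes. The gene that passed was Zfp36l1, which binds AU-rich elements, at 2.48 (SE 0.55, adjusted p = 0.049, limma), a call kept in 5 of 18 alternatives and lost without any 1 of the 10 libraries except treated wild-type replicate 3 (adjusted p between 0.0533 and 0.252). Zfp36l1 differed with treatment by 0.84 in wild-type cells (adjusted p = 0.15, limma) and by -1.64 in p53-null cells (adjusted p = 0.354, limma). Its means were 3.3 CPM untreated and 6.65 CPM treated in wild-type cells, and 20.5 and 6.32 CPM in p53-null cells. Of 10 partners of the family in transcription and signalling, 1 passed in wild-type cells and none in p53-null cells or in the difference. Rb1, the retinoblastoma protein gene that restrains entry into S phase, rose by 1.54 on the log2 scale (SE 0.32, adjusted p = 0.0117, limma), from 11, 5 and 5 reads in untreated to 26, 47 and 26 in treated wild-type replicates 1, 2 and 3. Its responses in the genotypes did not differ detectably (1.35, SE 0.50, adjusted p = 0.169, limma). Without untreated wild-type replicate 2 the adjusted p of Rb1 was 0.0544.

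Between genotypes without treatment, more of these genes passed, nearly all of them lower in wild type. In this comparison 33.2% of all tested genes passed, 12.7% upwards and 20.4% downwards. The median log2 differences were 0.18 for CCR4-NOT, -1.14 for the poly(A) partners, -1.42 for the adaptors and -0.84 for the signalling partners, beside -0.09 for all tested genes. For CCR4-NOT the counts were 1 higher and 5 lower of 11, although 6 of the 11 differences were positive. Cnot10 was 1.08 higher and Cnot3 1.14 lower on the log2 scale in wild-type cells (adjusted p = 0.00547 and 0.00982, limma). Among the poly(A) partners 4 of 9 were lower, and none higher. Pabpc4, a cytoplasmic poly(A)-binding protein, differed by -2.76 and Pan3, a subunit of the deadenylase that starts tail shortening, by -2.03 (adjusted p = 0.00118 and 0.00394, limma). Of the adaptors 4 of 8 were lower, among them Zfp36l1 (-2.49) and Zfp36 (-1.74). Of the signalling partners 4 of 10 were lower, led by Smad7, an inhibitor of signalling by the TGF-beta family, at -4.83 (adjusted p = 0.000597, limma). These counts rest on both untreated p53-null libraries. Without replicate 1 they were 0 for CCR4-NOT, and 1, 2 and 1 lower for the poly(A) partners, adaptors and signalling partners, where Cnot10, Cnot3, Pan3 and Zfp36 no longer passed (adjusted p = 0.0603, 0.0863, 0.0539 and 0.0667). Without replicate 2 they were 1 higher and 0 lower for CCR4-NOT and 2, 1 and 2 lower for the others. Without untreated wild-type replicate 2 or 3, 2 CCR4-NOT genes were lower, and without replicate 3 also 2 poly(A) partners.

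In the treated comparison of genotypes, where 12.1% of all tested genes passed, 6.82% upwards and 5.25% downwards, 5 genes on these lists did. Cnot3 (-1.13), Pan3 (-1.51), Pabpc4 (-1.28) and Smad7 (-4.97) were lower and Rb1 (1.38) was higher in wild-type cells, and no other tested gene on the 4 lists passed. Smad7 passed in all 18 alternatives, but without treated p53-null replicate 2 the adjusted p was 0.123 for Cnot3, 0.138 for Pan3, 0.247 for Pabpc4 and 0.157 for Rb1. Leaving out other libraries also ended the calls of Pabpc4 (10 of 18 alternatives kept it) and Rb1 (9 of 18).

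**Figure D4:**
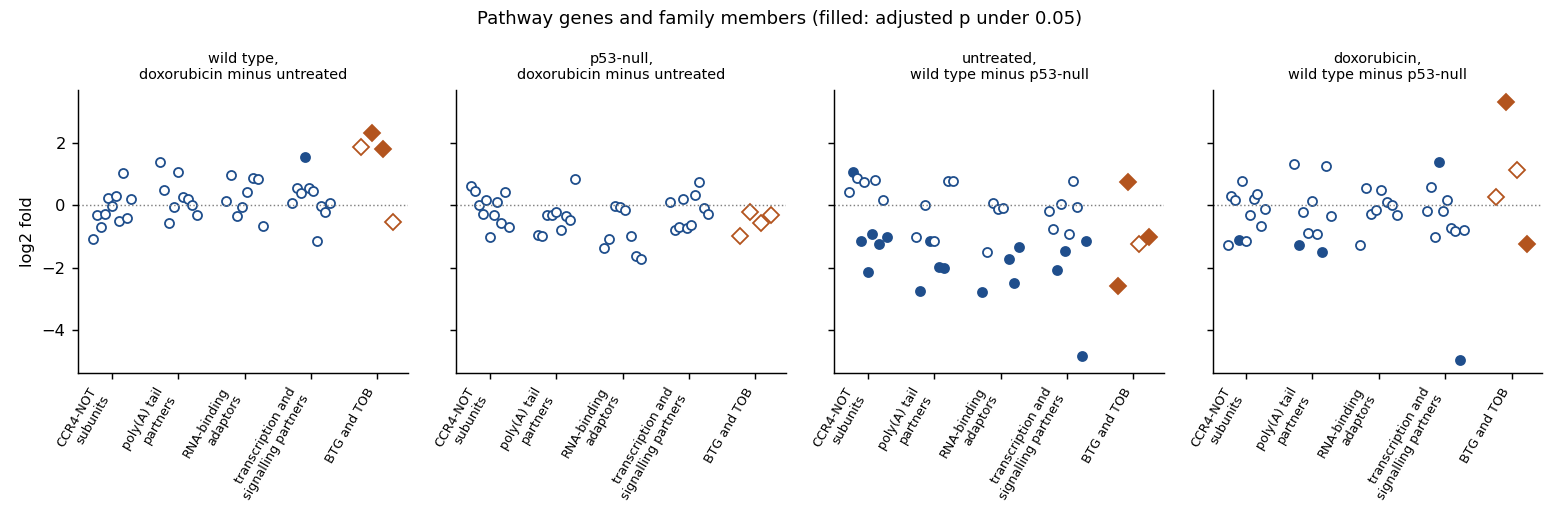
Log2 fold change of each tested gene on the 4 partner lists, with the 4 tested family members as diamonds. The panels show doxorubicin against untreated in each genotype, and wild type against p53-null without and with doxorubicin. In the treatment panels the CCR4-NOT subunits centre near 0 (medians -0.28 in wild-type and 0.02 in p53-null cells). Btg2 at 2.33 lies above them in wild-type cells.

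Genes with the pattern most like each member over the 10 libraries were found by the root mean square difference of centred log2 CPM among genes of average log2 CPM of at least 3, as a description without a test. For Btg2 they were Fam53b and Cpt1c, both 0.18 log2 units away on average, and Trp53i11, at 0.22. Trp53i11 averaged 12.6 CPM in untreated and 64.7 CPM in treated wild-type cells, and 6.74 and 8.39 CPM in p53-null cells. For Tob2 the nearest were Bclaf1 (0.17), Dot1l (0.18) and Tacc3 (0.20). The nearest genes lay farther off for Tob1, namely Ptpn14 (0.29), Col27a1 (0.36) and Txnrd1 (0.36), and for Btg1, namely Aplp2 (0.39), Nid1 (0.40) and Cast (0.42). Tob1 itself averaged 0.78, below the level asked of the candidates, so no gene of its own level could be chosen. Tob1 and Btg1 also had the largest residual standard deviations of the tested members (0.58 and 0.90). The part of either in these distances was not tested.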

How the data were processed

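The deposited RNA files hold, for each gene, 1 value on a scale close to log2, without a header; the authors' steps are known only from the submitters' processing notes, which name DESeq, without a version, and the build mm9. The sources used here name no aligner, annotation or strand. All libraries lay on 1 shared curve, along which whole reads were recovered: of 24117 distinct values, 99.97% lay within 0.01 of a whole read, and the 8 others, at most 0.483 away, stood at 178577 reads or more. These are computed values, so count models were not used. Library sizes were corrected by TMM factors (trimmed means of M values, trims 30% and 5%) of 0.86 to 1.224. Genes reaching 1 CPM in 2 or more libraries entered the test on log2 of CPM plus 0.5, which understates folds of low genes, with limma 3.58.1 in R 4.3.3 (trend option, 1 mean per group over 10 libraries, Benjamini-Hochberg adjustment, threshold 0.05). Ratios of few reads have exact intervals for counting error only; with no molecular identifiers, reads are not independent molecules.

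Deviations of wild-type libraries from their group means correlated at 0.581, 0.342 and 0.611 for equal numbers over 11177 genes. The numbers were taken to pair them by the rule that each exceed 0.1. Unequal numbers gave -0.504 to -0.018, but centring on group means pushes these values down, so they are no separate check. The p53-null value (0.385) also exceeds 0.1. With 2 libraries a group it is 1 value, mirrored as -0.385 for unequal numbers, and was not taken to pair them. The members and lists were chosen with earlier results of these data known, so no list is independent evidence. All 5 members, Btg4, up to 4 passing genes a list and comparison by p (else the 1 of smallest p, of which the nearest is printed), Trp53, Cdkn1a, Mdm2, Ccng1 and 3 genes most like each member could be named. The values of 1 list gene are not reported here. Markers of lymphocytes (8 genes, at most 1.2 CPM summed), endothelium (6, at most 4.31 CPM) and epithelium (6, 55.3 to 222 CPM) were also summed. The epithelial sum was nearly all Krt19 (16140 reads over all libraries) and Krt18 (3301). Epcam had 42 reads, Cdh1 29, Krt8 62 and Cldn4 3. Marker genes are named only to show what carries a sum. Within 2000 bases RefSeq has no other gene beside Btg1, Btg2, Tob1 or Tob2, and has Cxadr 75 bases from Btg3. The treatment of reads that match several genes is not stated. The peak list was not used, since it names no genes and its build differs from that of the annotation at hand.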

Additional observations from a re-analysis of the deposited data

Results flagged for a closer look

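The doxorubicin response of Btg2 differed between wild-type and p53-null cells by 2.56 on the log2 scale, by a test of the difference itself (adjusted p = 0.00787, limma). It was higher in 3 of 3 treated wild-type libraries than in any untreated one, while the p53-null groups overlapped.

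The response of Zfp36l1, an adaptor that recruits deadenylases, differed by 2.48 by the same test (adjusted p = 0.049, limma), a call kept in 5 of 18 alternatives. It differed by 0.84 in wild-type and by -1.64 in p53-null cells, neither of which passed.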

How the results depend on the processing

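The rise of Btg2 in wild-type cells (log2 fold 2.17 to 2.85) and its excess over p53-null cells with doxorubicin (2.96 to 3.98) passed in all 19 and 18 alternatives. Without any filter on low values, 1 member passed in wild-type cells, 1 in the untreated and 1 in the treated comparison of genotypes, and 2 genes of all passed in p53-null cells. With only the compared groups fitted, 1 member and 784 genes passed in wild-type cells, and 1 member and 670 genes in the treated comparison. With limma-voom 1 member passed in the untreated comparison, and on the deposited values 1 in the treated one. A replicate block over all libraries gave 481 genes in the difference of responses. A replicate block within wild type, chosen after seeing the data, gave 2437 genes in wild-type cells, and 3 members and 865 genes in the difference. It was used only for the responses and their difference, where it changed the calls of Btg1 and, in the difference, of Tob1, whose values are given above; the block over all libraries also ended the untreated call of Btg2 (adjusted p = 0.068).

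Leaving out each library in turn, members past the threshold ran from 1 to 3 in wild-type cells, 0 to 0 in p53-null cells, 0 to 1 in the difference, 0 to 4 in the untreated and 1 to 2 in the treated comparison. All tested genes past it ran from 712 to 1458, 0 to 1, 38 to 305, 420 to 4222 and 467 to 1493 in the same order. Differences that changed sign had not passed: with 1 library left out, the p53-null difference ran from -1.15 to 0.0032 for Tob1, -0.9 to 0.24 for Tob2 and -0.5 to 0.01 for Btg2, and the Tob2 difference of responses from -0.8 to 0.31, each turning positive without 1 of the treated p53-null libraries. Btg1 in the treated comparison of genotypes became -0.04 with library size alone, and ran from -0.62 (without treated p53-null replicate 1) through -0.12 (without treated wild-type replicate 1) to 1.04 when 1 library was left out. The cause was not tested.

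Scaling by library size alone moved the median of all genes from -0.09 to -0.43 in the untreated and from -0.03 to -0.29 in the treated comparison, and the share of passing genes that were higher in wild type from 38.4% to 13.4% and from 56.5% to 31.4%. In the difference of responses that share was 80.8%, against 91% for library size alone, 69.4% for median-of-ratios factors and 67.6% with the block within wild type. Depth limits Btg3, Btg4 and Tob1, which had 7 reads or fewer in each untreated wild-type library.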
